A study of Mus musculus with 9 samples.

Results

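Oxidative phosphorylation passes electrons along a chain of enzyme complexes in the inner mitochondrial membrane and uses the resulting proton gradient to make ATP. Complex I oxidises NADH, complex II oxidises succinate, complex III hands electrons to cytochrome c, complex IV reduces oxygen, and complex V is the ATP synthase. Most subunits are encoded in the nucleus and imported, a small core is encoded by mitochondrial DNA, and several complex IV subunits exist as a broadly expressed and a tissue-restricted gene. In the brain this system is known to supply most of the ATP that ion pumping and synaptic signalling use.

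The genes of these complexes were followed through development of the mouse central nervous system. Members were the protein-coding genes whose GENCODE symbols begin as subunit names do: Nduf with a subunit letter and digit, Sdha to Sdhd, Uqcr, Cox4 to Cox8, Atp5, and the mitochondrial mt-Nd, mt-Co, mt-Atp and mt-Cytb genes. The rule used names and no measured value, and it found 97 of the 45706 gene identifiers in the count table. Of these, 84 were nuclear and 13 mitochondrial. Complex I held 35 nuclear and 7 mitochondrial members, complex II 4 nuclear members, complex III 8 and 1, complex IV 20 and 3, and complex V 16 and 2. Ndufa4, a complex IV subunit despite its name, and its paralogue Ndufa4l2 were placed in complex IV. Atp5s, which is associated with ATP synthase, was placed outside the complexes. Subunits with names outside this pattern are not covered, so statements on a complex or its subunits below hold for its members only.

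Whole tissue of C57BL6/J mice with no listed treatment was taken at the embryonic stages E9.5 (head tissue cut behind the 4th ventricle and freed of most tissue other than neuroectoderm) and E14.5 (brain without meninges) and at the adult postnatal stage P60. The P60 mice alone were anaesthetised with ketamine and xylazine and perfused with saline, so anaesthesia and perfusion cannot be told apart from adult age. The dissections at E9.5 and E14.5 also differed, and none is described here for P60, so dissection cannot be told apart from age either. Each stage had 3 libraries made by poly(A) priming and PCR, called libraries 1, 2 and 3 by the number in their titles. The labels do not say whether these are separate animals or pools, so p-values measure the spread between these libraries, which may be technical. In bulk tissue, fewer cells of a type and less RNA per cell cannot be told apart.

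Levels are given in CPM, counts per library total after TMM adjustment of that total, and fold changes come from edgeR's quasi-likelihood fit of all 9 libraries. A gene is called higher or lower at a Benjamini-Hochberg adjusted p under 0.05 over the 17971 genes tested, and ± after a log2 value is its standard error. Library totals ran from 30481975 to 35619093 counts. The 6 neuron markers summed to 197, 153 and 157 CPM at E9.5, 4716, 3578 and 3304 CPM at E14.5 and 6306, 6721 and 6124 CPM at P60, and the 5 progenitor markers to 1554, 1272 and 1322 CPM at E9.5, 1949, 1336 and 1434 CPM at E14.5 and 104, 129.6 and 107 CPM at P60. The 5 oligodendrocyte markers summed to 48.1, 53.3 and 53.2 CPM at E9.5, 44.5, 68.9 and 55.1 CPM at E14.5 and 15180, 12820 and 14510 CPM at P60, and the 9 erythroid markers to 5754, 5795 and 4274 CPM at E9.5, 1965, 1000 and 1053 CPM at E14.5 and 73.7, 28.5 and 120.2 CPM at P60. Single markers did not all follow these sums. Of the 6 neuron markers, 4 were called higher and 2 lower at P60 than at E14.5, beside 36.7% and 39.4% of all genes. Of the 9 erythroid markers, 4 were called higher and 5 lower at E14.5 than at E9.5, beside 34% and 30.7% of all genes. The part of these cell types in the results below was not tested. In the first E9.5 library 11 heart and skeletal muscle markers summed to 475 CPM, where the other E9.5 libraries had 14.75 and 14.83 CPM.

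In the members themselves, 3 libraries stood apart within their stage. The first E9.5 library had the highest level of its stage for 78 of 83 nuclear members tested and the lowest for all 7 mitochondrial members tested. The first E14.5 library had the same for 79 and 7. The second P60 library went the other way, lowest for 81 nuclear members and highest for 7 mitochondrial ones. Genes for cytosolic ribosomal proteins, which are not members, moved with the nuclear members: of 83 tested, 79 were highest in the first E9.5 library, 82 were highest in the first E14.5 library and 82 were lowest in the second P60 library. The part of library quality in these shifts was not tested, and results that turn on these libraries are also given without them.

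Promoters of many nuclear respiratory genes are known to bind the factors NRF1, GABP (an ETS-family factor) and YY1. The promoters shown here were picked to span what was found: Cox6a1, a broadly expressed complex IV gene, and Ndufb4, a complex I gene with one of the largest adult rises, hold several matches, and Cox8b, a tissue-restricted complex IV gene, holds none. Each line gives the 250 bases before the RefSeq start on GRCm38.p6, 5′ to 3′ on the gene's strand, which is the minus strand for all 3. Capitals mark matches to the NRF1 palindrome, to CCGGAAG (GABP) or to AAGATGGCG (YY1), searched on both strands.
Cox6a1 (chr5:115348959-115349208): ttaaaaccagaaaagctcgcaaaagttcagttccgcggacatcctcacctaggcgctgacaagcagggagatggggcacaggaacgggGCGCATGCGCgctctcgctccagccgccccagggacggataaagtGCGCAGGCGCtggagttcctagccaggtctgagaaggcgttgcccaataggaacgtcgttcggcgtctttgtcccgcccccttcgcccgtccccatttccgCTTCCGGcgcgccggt
Ndufb4 (chr16:37654369-37654618): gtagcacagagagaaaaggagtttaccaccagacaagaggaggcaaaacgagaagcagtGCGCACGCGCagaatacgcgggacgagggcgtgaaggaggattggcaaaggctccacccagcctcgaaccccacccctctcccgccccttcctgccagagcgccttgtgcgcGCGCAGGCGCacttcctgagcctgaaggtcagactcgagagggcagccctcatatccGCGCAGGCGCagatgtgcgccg
Cox8b (chr7:140900447-140900696): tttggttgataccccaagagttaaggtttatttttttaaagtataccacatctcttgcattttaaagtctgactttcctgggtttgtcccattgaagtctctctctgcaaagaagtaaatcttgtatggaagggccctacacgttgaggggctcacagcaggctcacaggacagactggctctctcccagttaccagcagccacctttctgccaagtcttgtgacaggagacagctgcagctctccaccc
Cox6a1 held 2 NRF1 matches and 1 GABP match, and Ndufb4 held 3 NRF1 matches.

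RefSeq promoters of 300 bases, 250 before and 50 after the start, were held for 68 of the 84 nuclear members, 73 promoters in all. The NRF1 palindrome occurred in 18 of the 73 (24.7%), against 8.21% of 16506 promoters of tested genes and 4.6% of all 32851 promoters. The GABP letters occurred in 16 (21.9%), against 2389 of the 16506 and 8.86% of all promoters. The YY1 letters occurred in 7 (9.59%), against 2.37% and 1.4%. At least 1 of the 3 occurred in 35 member promoters (47.9%), against 22.6% of those of tested genes. Matches of different motifs overlapped in 0 of the 73 promoters. The 4 tissue-restricted complex IV genes with a promoter in the table (Cox6b2, Cox7a1, Cox7b2 and Cox8b) had 0 matches. A match of letters describes a sequence and does not show a bound site.

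As a group the nuclear genes overlapped between the embryonic stages and were higher in the adult. Nuclear members took 1.13%, 0.969% and 0.957% of the E9.5 library counts, 1.27%, 0.8798% and 0.855% of the E14.5 counts, and 3.43%, 2.27% and 3.599% of the P60 counts. The embryonic stages overlapped, and every adult library lay above every embryonic one. Mitochondrial members took 0.503%, 0.866% and 0.958% in the E9.5 libraries, 0.744%, 1.19% and 1.27% in the E14.5 libraries, and 1.43%, 2.11% and 1.32% in the P60 libraries. Here too the embryonic stages overlapped and the adult libraries lay above them, by a smaller margin.

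**Figure D1:**
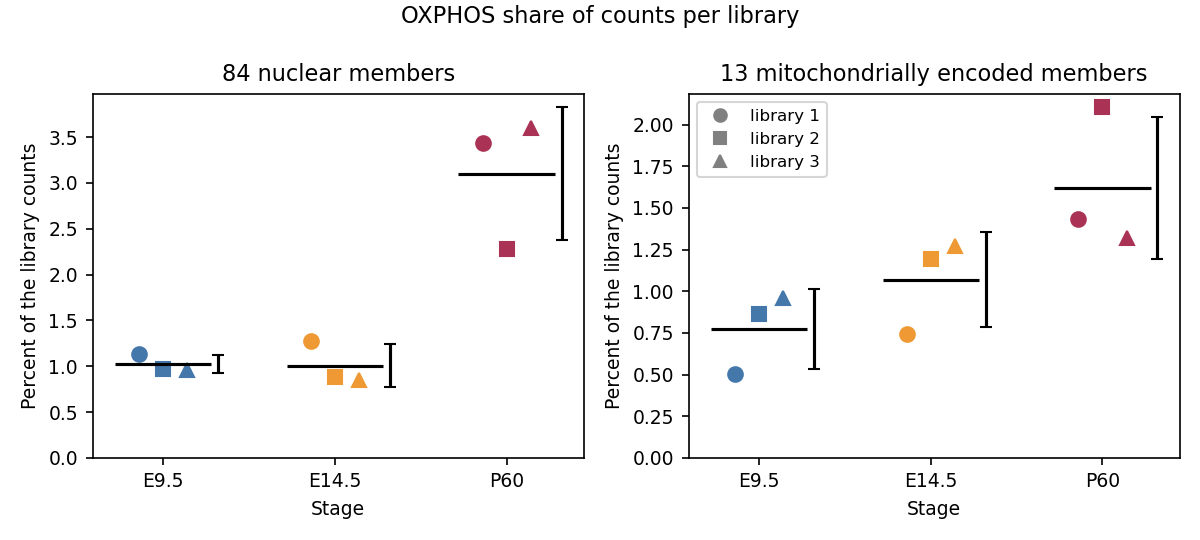
Percent of library counts (y axis) taken by the 84 nuclear members (left) and the 13 mitochondrial members (right) at each stage (x axis); circles, squares and triangles are libraries 1, 2 and 3, the line is the mean and the bar ± 1 SD of 3 libraries. All P60 libraries lie above all embryonic ones in both panels, and P60 library 2 is the lowest adult library on the left and the highest on the right. Counts on the right come almost only from 7 of the 13 members.

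The sum of nuclear CPM was 3.39-fold higher at P60 than at E14.5, and the mitochondrial sum 1.67-fold higher. By complex, the nuclear sum was 3.54-fold higher for complex I, 2.21-fold for complex II, 4.26-fold for complex III, 4.57-fold for complex IV and 2.75-fold for complex V. Sums are weighted to abundant genes and were not tested. The nuclear sum over the mitochondrial sum was 2.26, 1.12 and 1.00 in the E9.5 libraries, 1.71, 0.738 and 0.674 in the E14.5 libraries, and 2.40, 1.08 and 2.73 in the P60 libraries. These ranges overlap, with the libraries named above at their ends. The mitochondrial sum rests on 7 of the 13 members, so these ratios are not read as the balance between the genomes.

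Of the 97 members, 90 passed the filter on low counts, 83 nuclear and 7 mitochondrial. The 7 not tested were Cox8c, mt-Co2, mt-Co3, mt-Atp6, mt-Atp8, mt-Nd3 and mt-Nd4l. Another 3 (Cox6a2, Cox7b2 and Cox8b) passed only through the adult libraries and not in the 6 embryonic libraries by themselves. For P60 against E14.5, 86 of the 90 were called higher, 0 lower and 4 were not called, where 36.7% of all genes tested were called higher and 39.4% lower. Without the 3 that passed through the adult, 83 of 87 were called higher. The median log2 fold change was 1.77 over nuclear members (3.42-fold, and 1.74 on the log2 scale without those 3) and 0.98 over mitochondrial members, beside -0.06 over all genes. In 87 members every P60 library lay above every E14.5 library, which was so for 36.9% of all genes tested. Among the members 81 were called and at least 2-fold higher, beside 27.1% of all genes.

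The 4 members not called were mt-Cytb, mt-Co1, Ndufa4l2 and Atp5g2. Without the second P60 library 82 members were called higher, and without both first embryonic libraries 85. For P60 against E9.5, 88 members were called higher and 0 lower, where 42% of all genes were called higher and 40.6% lower. Leaving out the 3 that passed through the adult, 85 of 87 were called higher. The 2 not called were Cox6b2 and Atp5g2, and the nuclear median was 1.81 (1.79 without those 3). The 3 comparisons between stages share libraries, so they are not independent of each other.

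Between E9.5 and E14.5 the number of members called depended on whether same-numbered libraries were treated as pairs. Without pairing, for E14.5 against E9.5, 1 member was called higher (Ndufa4l2) and 5 lower (Ndufs1, Sdhd, Cox4i2, Cox6b2 and Atp5b), where 34% of all genes were called higher and 30.7% lower. The median log2 fold change was 0.01 over nuclear and 0.18 over mitochondrial members, beside 0.03 over all genes. In 3 members every E14.5 library lay above every E9.5 library, and in 11 every one lay below, beside 37% and 35.1% of all genes. Without the first E14.5 library, 4 members were called higher and 14 lower, and the nuclear median was -0.28.

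Embryonic libraries of the same number deviated together, but for libraries 2 and 3 different numbers did so as well. E14.5 library 2 correlated at 0.3945 with E9.5 library 3 and at 0.328 with E9.5 library 2. These values set apart only the first libraries as a pair. E14.5 against E9.5 was also fitted with the replicate number as a block in the 6 embryonic libraries. With the block, 18 of 87 members tested were called higher and 20 lower, where 38.5% of all genes were called higher and 39.4% lower. Complex I then had 9 nuclear members higher and 3 lower, complex II 0 and 2, complex III 0 and 4, complex IV 5 and 5, and complex V 1 and 6. Of the 7 mitochondrial members 3 were higher (mt-Cytb, mt-Co1 and mt-Nd4) and 0 lower. A difference between complexes was not tested.

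**Figure D2:**
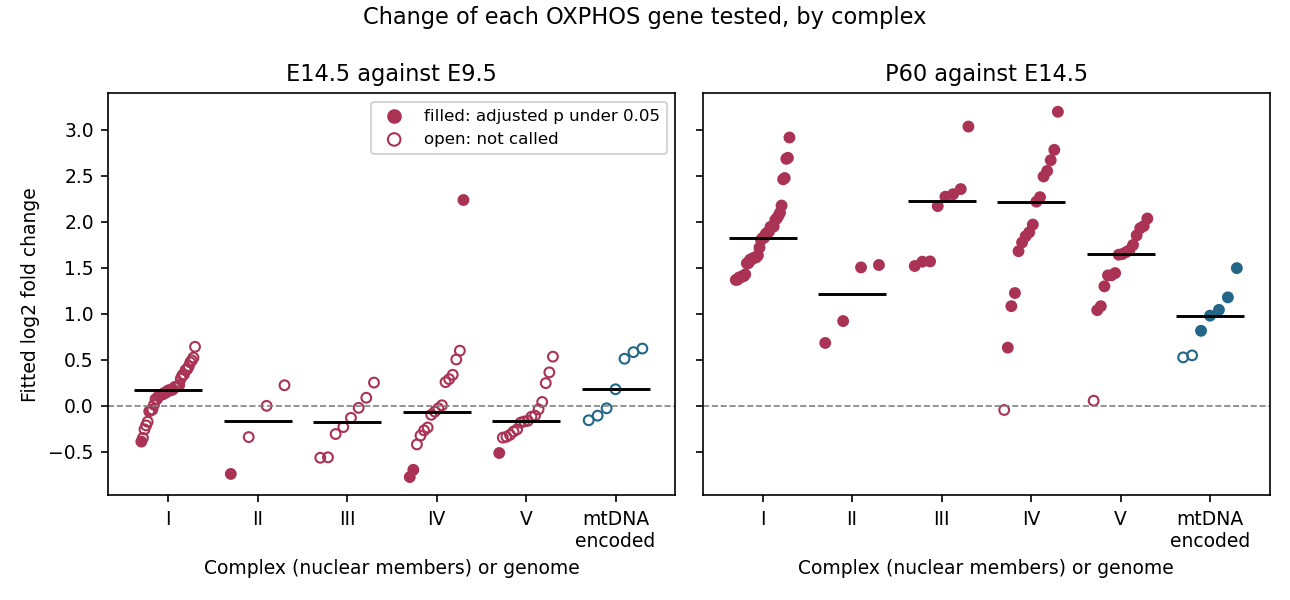
Fitted log2 fold change (y axis) of each member tested, E14.5 against E9.5 (left) and P60 against E14.5 (right), by complex for nuclear members and together for the 7 mitochondrial members (x axis). Filled points had an adjusted p under 0.05, and lines are medians over all members tested. Cox6a2, Cox7b2 and Cox8b, with few or no embryonic reads, are left out as points but count in the complex IV medians. Medians on the right are 1.82, 1.21, 2.22, 2.22 and 1.65 for complexes I to V and 0.98 for the mitochondrial genes. The complex IV median on the right is raised by those 3, which all lie above it. Points on the left spread around 0.

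Complex I has a core with flavin and iron-sulphur clusters surrounded by many accessory subunits. All 35 nuclear members were called higher at P60 than at E14.5, beside 36.7% of all genes. Their rises ran from 2.58-fold (Ndufs3, 185 ± 27.4 CPM at P60 and 71.9 ± 26.7 CPM at E14.5, SD, n = 3 each) to 7.55-fold (Ndufb4). Ndufs1, the largest iron-sulphur subunit, had 142, 134 and 131 CPM at E9.5, 121, 96.3 and 92.8 CPM at E14.5 and 278, 252 and 292 CPM at P60. It dipped at E14.5, below every E9.5 library (log2 -0.39 ± 0.14, adjusted p = 0.031), and was highest in the adult (1.41 ± 0.14 against E14.5, adjusted p = 6.3e-06). The dip was the only embryonic call in complex I without a block, and leaving out any E9.5 library, E14.5 library 2 or 3, or the first P60 library took its adjusted p to between 0.052 and 0.13.

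The largest rises were in Ndufb4 and Ndufb9, accessory subunits of the membrane arm. Ndufb9 had 87.1, 64.97 and 67.1 CPM at E9.5, 137, 77.7 and 73.4 CPM at E14.5 and 726, 367 and 774 CPM at P60. Every adult library was far above every embryonic one, and the rise over E14.5 was 6.48-fold (log2 2.69 ± 0.33, adjusted p = 2.2e-05). Per kilobase of exon Ndufb9 was the most abundant nuclear subunit of the complex at P60, at 604 CPM per kb, against 93.2 at E14.5. The median subunit stood at 180 CPM per kb at P60 and at 45.3 at E14.5.

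Ndufb4 was the least abundant per kilobase, at 16.2 CPM per kb at P60, against 2.14 at E14.5. Its libraries held 3.65, 3.41 and 3.48 CPM at E9.5, 5.695, 3.52 and 3.104 CPM at E14.5 and 34.1, 18.4 and 40.5 CPM at P60 (log2 2.92 ± 0.31 for P60 against E14.5, adjusted p = 8.5e-06). The embryonic stages overlapped and the adult libraries stood well above them. Of the 50-base words of its transcripts, 37% also occur in transcripts of other genes, most of them in the pseudogene Ndufb4c, which had 17 counts over all libraries. Its level is therefore uncertain, and the part of shared sequence was not tested. The same holds for other members named in this report, among them Ndufs3 (39.7% of words shared), Ndufb9 (23.4%) and Atp5h (23.8%).

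Complex II is the succinate dehydrogenase of the citric acid cycle and has no mitochondrially encoded subunit. All 4 members were called higher at P60 than at E14.5, beside 36.7% of all genes. Their median was the lowest of the 5 complexes (log2 1.21). Sdhd, a membrane anchor, had 183, 162 and 149.8 CPM at E9.5, 126, 87.6 and 82.3 CPM at E14.5 and 299, 214 and 324 CPM at P60. It dipped at E14.5 below every E9.5 library (log2 -0.74 ± 0.205, adjusted p = 0.0082) and was highest in the adult (1.503 ± 0.21 against E14.5, adjusted p = 6.3e-05). Sdhb, the iron-sulphur subunit, had 397, 255 and 419 CPM at P60, against 163, 104 and 104 CPM at E14.5 (log2 1.53 ± 0.24, adjusted p = 0.00015).

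Sdha and Sdhc had the smaller rises. Sdha, the flavin subunit, averaged 300.4 ± 18.1, 237 ± 38.8 and 448 ± 55.02 CPM at E9.5, E14.5 and P60 (SD, n = 3 each), with a log2 change of 0.92 ± 0.16 for P60 against E14.5 (edgeR adjusted p = 0.00033). Sdhc, the other anchor, had 182, 163 and 203 CPM at P60, against 125, 112 and 105 CPM at E14.5, a 1.603-fold rise (adjusted p = 0.00097). Per kilobase at P60, Sdhd was the highest at 227 CPM per kb and Sdhc the lowest at 56.3.

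Complex III is the cytochrome bc1 complex. Its 8 nuclear members were all called higher at P60 than at E14.5, beside 36.7% of all genes. Their rises ran from 2.86-fold (Uqcrfs1, the Rieske iron-sulphur protein) to 8.198-fold (Uqcr10, a small accessory subunit). Uqcr10 had 83.4, 70.5 and 67.6 CPM at E9.5, 59.96, 46.8 and 42.7 CPM at E14.5 and 493, 247 and 484 CPM at P60. No stages overlapped, and E14.5 was the lowest. The adult step was 3.04 ± 0.27 on the log2 scale (adjusted p = 2e-06). The embryonic step was not called without the block (-0.57 ± 0.25, adjusted p = 0.067) and was called lower with it (-0.58 ± 0.08, adjusted p = 0.00032).

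Uqcrq, another small subunit, had 528, 293 and 560.1 CPM at P60, against 134, 70.6 and 65.6 CPM at E14.5 (log2 2.35 ± 0.32, adjusted p = 5.9e-05). The core protein Uqcrc1 rose less, with 585, 508 and 608 CPM at P60 and 226, 175 and 174 CPM at E14.5 (log2 1.56 ± 0.15, adjusted p = 4.7e-06). In both genes every adult library lay above every E14.5 library. Per kilobase at P60 the complex ran from 137 CPM per kb in Uqcrc1 to 701 in Uqcrh, the hinge protein beside cytochrome c1. Uqcrh averaged 868 ± 329 CPM at P60 and 176 ± 74.3 CPM at E14.5 (SD, n = 3 each, edgeR adjusted p = 0.00013).

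Complex IV, cytochrome c oxidase, has broad and tissue-restricted isoforms among its members. Of 19 nuclear members tested, 18 were called higher at P60 than at E14.5, beside 36.7% of all genes. These 18 include the 3 that passed the filter only through the adult, which favours a higher call for them. Cox8a, the broad form of the smallest subunit, was the most abundant nuclear subunit of the complex per kilobase at P60, at 1323 CPM per kb. It had 144, 139.8 and 138 CPM at E9.5, 114, 126 and 117 CPM at E14.5 and 853, 666 and 938 CPM at P60. The embryonic libraries lay close together and the adult rise over E14.5 was 6.88-fold (log2 2.78 ± 0.16, adjusted p = 9.7e-08).

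Cox4i1, the broad form of subunit IV, had 313, 240.4 and 232 CPM at E9.5, 456, 277 and 259 CPM at E14.5 and 2130, 1153 and 2297 CPM at P60. The embryonic stages overlapped, and P60 was 5.63-fold above E14.5 (adjusted p = 2.3e-05). With the replicate block Cox4i1 was called higher at E14.5 than at E9.5 (log2 0.29 ± 0.10, adjusted p = 0.029). Other broad subunits were also called higher in the adult. Ndufa4 averaged 151 ± 12.9, 141 ± 37.04 and 825 ± 250 CPM over the 3 stages, Cox7b 127 ± 15.6, 94.5 ± 25.9 and 601 ± 218 CPM, and Cox6b1 156 ± 31.8, 190.5 ± 66.8 and 683 ± 209.7 CPM (SD, n = 3 each). Their adult steps over E14.5 were 5.86-fold, 6.36-fold and 3.58-fold. With the block their embryonic steps differed in direction: Cox6b1 was called higher at E14.5 (0.24 ± 0.09, adjusted p = 0.043), Cox7b lower (-0.46 ± 0.09, adjusted p = 0.0032), and Ndufa4 was not called (-0.13 ± 0.103, adjusted p = 0.27).

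Complex V joins a catalytic head to a proton channel in the membrane. Of 16 nuclear members tested, 15 were called higher at P60 than at E14.5, the exception being Atp5g2, beside 36.7% of all genes. The beta subunit Atp5b, which carries the catalytic sites, was the most abundant of the complex per kilobase at P60, at 709 CPM per kb. Its libraries held 1715, 1577 and 1534 CPM at E9.5, 1255, 1084 and 1037 CPM at E14.5 and 3135, 2548 and 3332 CPM at P60. Every E14.5 library was below every E9.5 library (log2 -0.52 ± 0.15, adjusted p = 0.013) and every P60 library above all others (1.42 ± 0.16 against E14.5, adjusted p = 1.2e-05). Without the second or the third E14.5 library the dip had an adjusted p of 0.052 or 0.059.

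The alpha subunit Atp5a1 averaged 1056 ± 59.7, 847 ± 103 and 1738 ± 113 CPM over the 3 stages (SD, n = 3 each). Its P60 libraries lay above the rest (log2 1.04 ± 0.14 against E14.5, adjusted p = 6.7e-05), and its embryonic step was not called without the block (-0.32 ± 0.14, adjusted p = 0.073) and was called lower with it (-0.33 ± 0.09, adjusted p = 0.0097). The largest adult steps were in small membrane subunits. Atp5mpl, a small proteolipid of the membrane part, had 310, 159.9 and 356 CPM at P60, against 102, 51.4 and 47.9 CPM at E14.5 (4.097-fold, adjusted p = 0.00031). Atp5k, the e subunit, had 373, 197 and 418 CPM at P60, against 127, 65.8 and 62.5 CPM at E14.5 (3.87-fold, adjusted p = 0.00035).

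Against E9.5 the largest adult rises of complex V were in Atp5e, the epsilon subunit, and Atp5h, the d subunit of the stalk. Atp5e averaged 452 ± 180.5 CPM at P60 and 100.2 ± 23.4 CPM at E9.5, and Atp5h 638 ± 216 and 163 ± 27.9 CPM (SD, n = 3 each). The log2 changes were 2.17 ± 0.41 (adjusted p = 0.00046) and 1.97 ± 0.34 (adjusted p = 0.00027). Atp5l, the g subunit, stood far below the rest, with 13, 23 and 15 counts in the E9.5 libraries, 37, 21 and 16 in the E14.5 libraries, and 49, 45 and 55 in the P60 libraries. Its adult call was lost without the second or the third E14.5 library (adjusted p = 0.063 and 0.067).

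Of the tissue-restricted complex IV genes, Cox6a2, Cox7a1 and Cox8b are known from heart and skeletal muscle, Cox4i2 from lung, and Cox6b2, Cox7b2 and Cox8c from testis. Cox6a2 (chr7:128205435-128206387, mm10) had 32, 0 and 0 counts in the E9.5 libraries, 1, 2 and 0 in the E14.5 libraries, and 658, 671 and 796 in the P60 libraries. The adult level was even over the libraries, at 21.9, 19.7 and 23.4 CPM, and apart from the first E9.5 library the embryonic ones held almost none. The ratio of P60 to E14.5 counts, scaled to library totals, was 750 with a 95% exact counting interval of 256 to 3638.

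Cox8b (chr7:140898945-140900446) had 1, 0 and 0 counts in the E9.5 libraries, 0, 0 and 0 in the E14.5 libraries, and 178, 109 and 329 in the P60 libraries. Against a floor of 3 counts over the E14.5 stage, the adult level was at least 217-fold higher. Counting intervals and floors cover counting error only, since PCR copies are not marked. Cox7a1 had 1.84, 0.796 and 0.670 CPM at E9.5, 1.39, 0.895 and 0.4599 CPM at E14.5 and 9.83, 5.52 and 9.81 CPM at P60, and its adult libraries lay above all embryonic ones (9.17-fold over E14.5, log2 3.196 ± 0.46, adjusted p = 7.9e-05). Cox7b2 had 0, 0 and 0 counts in the E9.5 libraries, 3, 0 and 2 in the E14.5 libraries, and 21, 19 and 27 in the P60 libraries. Cox8c had 1 count in all.

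The 32 Cox6a2 counts of the first E9.5 library stand beside the muscle markers of that library: Actc1, Myl7 and Myh6 were there at 129.6, 44.3 and 70.05 CPM. In the adult the 11 muscle markers summed to 115, 122 and 116 CPM, against 21.2, 30.2 and 26.3 CPM at E14.5. Most of the adult sum came from Ryr2 (33.99 to 56.3 CPM), Myl4 (27.1 to 38.4 CPM) and Tnni1 (11.5 to 17.5 CPM). Of the 11, 5 were called higher and 0 lower for P60 against E14.5, beside 36.7% and 39.4% of all genes. Others of the list were low at P60, with Actc1 at most 0.09996 CPM, Myl7 at most 0.0295 CPM, Ttn at most 0.617 CPM and Myh6 at most 0.528 CPM. Pvalb, which marks an interneuron class, had 280.1, 156 and 269.7 CPM at P60, against 0.422, 1.62 and 0.949 CPM at E14.5. The part of this class, or of muscle cells, in the Cox6a2 level was not tested.

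Isoform balance was read as the log2 ratio of 2 genes in each library, on CPM + 1, with an exact permutation test over all assignments of the 9 libraries to stages. The family held 13 ratios, and p-values were adjusted over all of them. The smallest p this design allows is 0.0036. Ratios at that p had an adjusted p of 0.0066 here, a value that depends on all 13 ratios, also those not read below. In 3 ratios (Cox7b2, Cox8c and Cyct) the first gene stayed under 1 CPM at every stage, and they are not read. Cox6a2 and Cox8b passed the filter on low counts only through the adult libraries, so their ratios are given as a description with no test. All of the other 8 had an adjusted p under 0.05. The added 1 also weighs on ratios whose first gene is near 1 CPM, as in embryonic Cox4i2 and Cox7a1 and in Ndufa4l2 at E9.5.

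The Cox6a2 to Cox6a1 ratio was -6.53 ± 0.34 at E9.5, -7.29 ± 0.54 at E14.5 and -4.76 ± 0.16 at P60 (SD, n = 3 each), with the embryonic ratios set mostly by the added 1. Even in the adult Cox6a1, at 639.8, 496 and 725 CPM, was far above Cox6a2 in every library. The Cox4i2 to Cox4i1 ratio was -6.45 ± 0.07, -7.17 ± 0.33 and -8.27 ± 0.27 over the stages, lowest in the adult (SD, n = 3 each, exact permutation adjusted p = 0.0066). Cox4i2 itself had 2.61, 1.89 and 1.53 CPM at E9.5, 1.45, 1.29 and 0.977 CPM at E14.5 and 5.23, 3.64 and 5.68 CPM at P60, so its level was highest in the adult while its ratio to Cox4i1 was lowest. Its embryonic fall (log2 -0.699 ± 0.28, adjusted p = 0.048) lost its call without E9.5 library 1 or 2, E14.5 library 2 or 3, or P60 library 1 or 3, with an adjusted p between 0.057 and 0.2.

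Cox6b2 had 7.93, 7.23 and 7.11 CPM at E9.5, 5.88, 3.66 and 3.45 CPM at E14.5 and 6.298, 6.28 and 7.51 CPM at P60. It was lower at E14.5 than at E9.5 (log2 -0.78 ± 0.22, adjusted p = 0.0089) and higher at P60 than at E14.5 (0.63 ± 0.22, adjusted p = 0.021), the second call being lost without E14.5 library 2 or 3 or P60 library 3 (adjusted p = 0.089, 0.094 and 0.067). Its ratio to Cox6b1 was -4.204 ± 0.204, -5.14 ± 0.13 and -6.42 ± 0.42 (SD, n = 3 each, exact permutation adjusted p = 0.0066). The ratio was thus lower at each stage than at the one before.

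Ndufa4l2, a paralogue of Ndufa4 that is induced by hypoxia, was the 1 member called higher between the embryonic stages without the block. It had 0.703, 1.46 and 0.893 CPM at E9.5, 6.63, 4.39 and 3.42 CPM at E14.5 and 5.23, 4.46 and 4.27 CPM at P60. Every E14.5 library exceeded every E9.5 library (4.71-fold, log2 2.24 ± 0.32, adjusted p = 0.00011), and E14.5 and P60 overlapped (-0.05 ± 0.29, adjusted p = 0.89). Its ratio to Ndufa4 was -6.25 ± 0.34, -4.61 ± 0.11 and -7.14 ± 0.47, highest at E14.5 (SD, n = 3 each, exact permutation adjusted p = 0.0066). Ndufa4l2 is also known from pericytes. Of 10 pericyte and smooth muscle markers, 7 were called higher and 2 lower at E14.5 than at E9.5, beside 34% and 30.7% of all genes. Their median was 4.83-fold. With the replicate block Pdgfrb, Notch3 and Acta2 were called lower at E14.5 (log2 -0.606, -1.507 and -1.671), and the other 7 higher. Rgs5 had 90.2, 91.6 and 77.9 CPM at E14.5, against 1.87, 0.365 and 2.07 CPM at E9.5, and Kcnj8 11.5, 11.1 and 8.85 CPM at E14.5, against 0, 0.0663 and 0.0319 CPM at E9.5. The 10 markers summed to 334, 311 and 320.3 CPM at E9.5, 279, 354 and 316 CPM at E14.5 and 332, 373 and 355 CPM at P60. The part of these cells in the Ndufa4l2 level was not tested.

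Cox7a2l, a relative of Cox7a2, had 79.2, 57.9 and 56.6 CPM at E9.5, 147, 73.2 and 72.7 CPM at E14.5 and 226, 147 and 247 CPM at P60. Its ratio to Cox7a2 was -1.17 ± 0.06, -0.56 ± 0.11 and -1.23 ± 0.08, highest at E14.5 (SD, n = 3 each, exact permutation adjusted p = 0.019), and without both first embryonic libraries the adjusted p was 0.083. The Cox7a1 to Cox7a2 ratio was -6.16 ± 0.19, -6.20 ± 0.23 and -5.703 ± 0.02 (SD, n = 3 each, exact permutation adjusted p = 0.043). That call was lost under median-of-ratios and upper quartile scaling and on leaving out each of 7 libraries by itself (adjusted p from 0.058 to 0.13). Embryonic Cox7a1 was at 0.46 to 1.84 CPM, so the added 1 makes this shift look small. The fitted rises of P60 over E14.5 were 9.17-fold for Cox7a1 and 3.42-fold for Cox7a2. The Cox8b to Cox8a ratio was -7.13 ± 0.01, -6.91 ± 0.08 and -6.904 ± 0.43 (SD, n = 3 each), again with the embryonic values set mostly by the added 1.

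**Figure D3:**
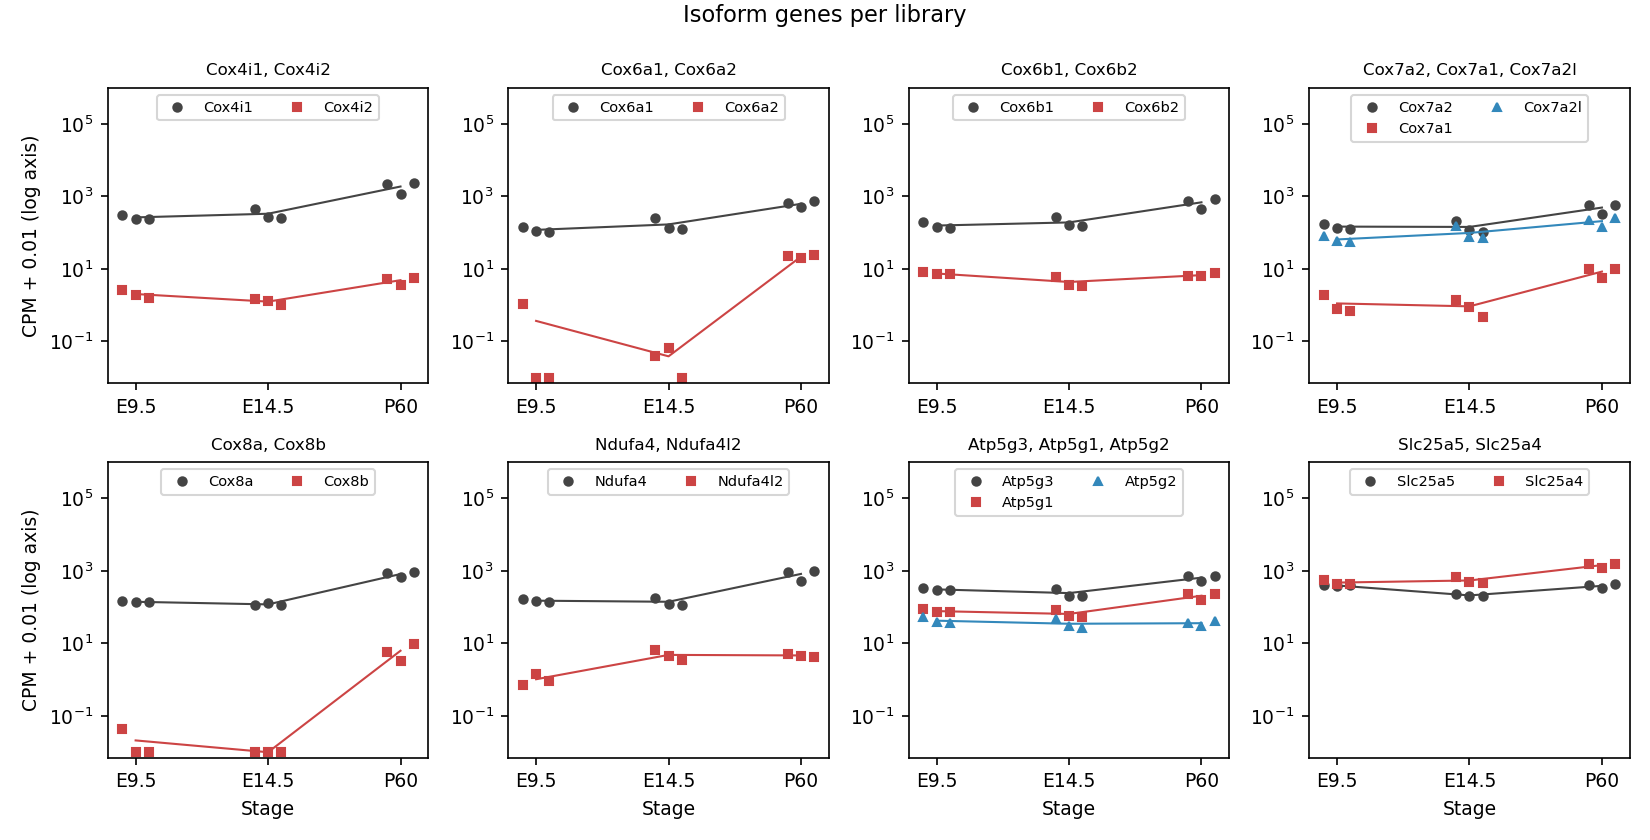
CPM + 0.01 (y axis, log scale) at each stage (x axis) for 8 isoform families; each symbol is 1 library and lines join the stage means. Cox6a2 and Cox8b are near the floor in the embryonic libraries, apart from Cox6a2 in the first E9.5 library, and well above it at P60, Ndufa4l2 is higher at E14.5 and P60 than at E9.5, and Atp5g2 stays between 27.02 and 51.9 CPM at all stages.

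The c subunit of the ATP synthase rotor is made from 3 genes that give the same mature protein. Atp5g3 had 331, 291 and 305 CPM at E9.5, 322, 207 and 203 CPM at E14.5 and 705, 514 and 734 CPM at P60 (2.67-fold for P60 over E14.5, adjusted p = 0.00011). Atp5g1 had 88.2, 72.4 and 72.5 CPM at E9.5, 82.7, 57.3 and 54.9 CPM at E14.5 and 224, 162 and 233 CPM at P60 (3.18-fold, adjusted p = 2.4e-05). In both genes every adult library lay above every embryonic one, which was not so for Atp5g2. Atp5g2 (chr15:102662864-102672352) had 51.9, 38.5 and 36.7 CPM at E9.5, 47.8, 29.6 and 27.02 CPM at E14.5 and 36.05, 29.9 and 42.4 CPM at P60, with P60 against E14.5 at 0.05 ± 0.24 on the log2 scale (adjusted p = 0.85).

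The P60 libraries of Atp5g2 overlapped those of both embryonic stages, and its ratio to Atp5g3 was lower in the adult. That ratio was -2.85 ± 0.19, -2.79 ± 0.07 and -4.13 ± 0.104 (SD, n = 3 each, exact permutation adjusted p = 0.025). The Atp5g1 to Atp5g3 ratio moved less, at -1.98 ± 0.08, -1.88 ± 0.06 and -1.65 ± 0.01 (SD, n = 3 each, exact permutation adjusted p = 0.01).

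The mitochondrial genome encodes 7 complex I subunits, cytochrome b, 3 complex IV subunits and 2 ATP synthase subunits, and 7 of these 13 genes had reads enough to test. mt-Co1, the catalytic oxidase subunit, had 1640, 2696 and 3021 CPM at E9.5, 2993, 3889 and 4128 CPM at E14.5 and 4839, 6872 and 4368 CPM at P60. Every adult library lay above every E14.5 library, yet the difference was not called (log2 0.55 ± 0.26, adjusted p = 0.072), while P60 against E9.5 was (1.13 ± 0.26, adjusted p = 0.0018). mt-Cytb, the core of complex III, had 1400, 2112 and 2196 CPM at E9.5, 2162, 2945 and 3017 CPM at E14.5 and 3578, 4885 and 3219 CPM at P60 (0.52 ± 0.23 for P60 against E14.5, adjusted p = 0.058). With the median-of-ratios scaling both were called for P60 against E14.5 (adjusted p = 0.044 and 0.033).

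The mitochondrial complex I genes were called higher at P60 than at E14.5. mt-Nd1 had 853, 1593 and 1762 CPM at E9.5, 848, 1601 and 1671 CPM at E14.5 and 2367, 3783 and 2328 CPM at P60 (log2 1.04 ± 0.33, adjusted p = 0.014). mt-Nd2 changed by 0.98 ± 0.396 (adjusted p = 0.043), mt-Nd4 by 0.81 ± 0.33 (adjusted p = 0.041) and mt-Nd5 by 1.18 ± 0.41 (adjusted p = 0.023). Without the second P60 library, the highest of its stage, these 4 were no longer called (adjusted p = 0.067 for mt-Nd1, 0.19 for mt-Nd2, 0.14 for mt-Nd4 and 0.095 for mt-Nd5), and the mitochondrial median was 0.63 in place of 0.98. Without the first E14.5 library mt-Nd2 and mt-Nd4 were not called (adjusted p = 0.12 and 0.092). The mt-Nd2 call was also lost without E9.5 library 2 or 3, E14.5 library 2 or P60 library 1 (0.05 to 0.058), and the mt-Nd4 call without E9.5 library 2 or P60 library 1 or 3 (0.052 to 0.072).

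mt-Nd6, the one protein gene on the other strand, had 176, 225 and 292 CPM at E9.5, 211, 211 and 219.6 CPM at E14.5 and 537, 743 and 529 CPM at P60. It had the largest adult step of the 7 (log2 1.495 ± 0.21, adjusted p = 5.9e-05), and no P60 library overlapped an embryonic one. The library kit does not mark strand, so reads of mt-Nd6 and of RNA from the opposite strand at that place cannot be told apart.

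The other 6 mitochondrial members were at or near 0 in every library. mt-Co2 and mt-Nd3 had 1 count each over all 9 libraries, and mt-Atp6, mt-Atp8, mt-Co3 and mt-Nd4l had 0. They are neighbours, from position 7013 to 10173 of the mitochondrial sequence (mm10, GENCODE M21), between mt-Co1 and mt-Nd4. Pseudogenes annotated at chr1:24611535-24616197 share most of this stretch. Of the 50-base words of mt-Co2, mt-Co3, mt-Atp6, mt-Nd4l and mt-Nd3, 98% or more also occur in transcripts of other genes, beside 62.2% in mt-Nd4, 51.1% in mt-Co1, 8.19% in mt-Nd2, 7.61% in mt-Nd5 and 0% in mt-Nd1, mt-Nd6, mt-Cytb and mt-Atp8. The part of shared sequence in these zeros was not tested, and a value listed at 0 here is not read as absence of the RNA.

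Beyond the subunits, the genes that build, feed and regulate the complexes were read from lists. Of 112 list genes tested, 71 were called higher and 18 lower for P60 against E14.5, where 36.7% of all genes were called higher and 39.4% lower. For E14.5 against E9.5, 19 were called higher and 49 lower, where 34% and 30.7% of all genes were. Assembly factors, which help build the complexes without staying in them, had 36 of 49 tested called higher and 1 lower at P60 against E14.5, with a median log2 fold change of 1.17. The complex I factor Ndufaf5 averaged 138 ± 45.7 CPM at P60 and 24.7 ± 7.73 CPM at E14.5, and Ndufaf6 22.4 ± 8.26 and 6.86 ± 2.15 CPM (SD, n = 3 each). Uqcc2, a complex III factor, averaged 289 ± 105 CPM at P60 and 52.7 ± 23.4 CPM at E14.5, and Coa6, a copper protein of complex IV assembly, 36.3 ± 8.22 and 7.34 ± 1.16 CPM.

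Tmem186, a complex I factor, was the one assembly gene called lower at P60 (25.3 ± 0.607 CPM at P60 and 33.8 ± 1.26 CPM at E14.5, SD, n = 3 each, edgeR adjusted p = 0.0067), and with upper quartile scaling its adjusted p was 0.11. For E14.5 against E9.5, 16 of the 49 were called lower and 7 higher, a share of lower calls near the 30.7% of all genes. With the replicate block 23 were lower and 12 higher, beside 39.4% and 38.5% of all genes. Nubpl, which brings iron-sulphur clusters to complex I, averaged 8.32 ± 2.35 CPM at E14.5 and 20.3 ± 1.29 CPM at E9.5 (edgeR adjusted p = 0.00023, n = 3 each). Sco1, a copper carrier for complex IV, averaged 14.3 ± 0.768 CPM at E14.5 and 27.1 ± 2.04 CPM at E9.5 (edgeR adjusted p = 0.0002, n = 3 each). Ndufaf3 and the complex III factor Ttc19 went the other way and were called higher in each step, with Ndufaf3 at 11.2 ± 0.828, 28.8 ± 8.599 and 69.1 ± 7.54 CPM and Ttc19 at 24.3 ± 0.6004, 41.6 ± 2.36 and 122 ± 9.22 CPM over the stages.

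Of 6 electron carrier genes tested, 4 were called lower and 2 not called at E14.5 against E9.5, where 30.7% of all genes were called lower. All 6 were called higher at P60 than at E14.5, beside 36.7% of all genes. Cycs, which encodes cytochrome c, had 70.7, 57.02 and 53.7 CPM at E9.5, 39.6, 28.2 and 26.8 CPM at E14.5 and 93.1, 66.96 and 97.8 CPM at P60. Its steps were -0.94 ± 0.203 (adjusted p = 0.002) and 1.45 ± 0.205 (adjusted p = 7.4e-05) on the log2 scale. Gpd2, which feeds electrons from glycerol phosphate, averaged 69.8 ± 7.35, 31.4 ± 3.404 and 81.5 ± 21.5 CPM over the stages, and Dhodh, which links the chain to pyrimidine synthesis, 40.95 ± 2.45, 19.7 ± 3.35 and 47.99 ± 5.202 CPM (SD, n = 3 each). Neither was called between P60 and E9.5.

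In coenzyme Q synthesis 11 of 13 genes were called higher at P60 than at E14.5, beside 36.7% of all genes. Coq8a, an atypical kinase needed for coenzyme Q production, had 1.24, 1.19 and 1.53 CPM at E9.5, 1.84, 2.27 and 2.04 CPM at E14.5 and 90.4, 72.01 and 101 CPM at P60, a log2 step of 5.42 ± 0.197 into the adult (adjusted p = 6.1e-09). Carriers of nucleotides and phosphate were called higher at P60 than at E14.5 in 7 of 7, beside the same 36.7%. Ckmt1, the mitochondrial creatine kinase, had 1.34, 0.862 and 0.383 CPM at E9.5, 27.6, 20.6 and 16.3 CPM at E14.5 and 405, 366 and 387 CPM at P60 and was called higher in both steps (adjusted p = 7.8e-07 and 5e-07).

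Slc25a4 and Slc25a5 encode ADP/ATP exchangers known from differentiated and from proliferating cells. Slc25a4 averaged 476 ± 62.4, 544 ± 119 and 1443 ± 203 CPM over the stages, and Slc25a5 396 ± 5.995, 211 ± 17.9 and 387 ± 54.4 CPM. Their log2 ratio was 0.26 ± 0.17, 1.35 ± 0.19 and 1.896 ± 0.05, with no overlap between stages (SD, n = 3 each, exact permutation adjusted p = 0.0066).

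Regulators of mitochondrial biogenesis did not all take the course of the subunits. For P60 against E14.5, 2 of 11 were called higher and 8 lower, beside 36.7% and 39.4% of all genes. Ppargc1a, the coactivator PGC-1alpha, had 2.41, 2.02 and 1.85 CPM at E9.5, 11.0, 19.4 and 17.8 CPM at E14.5 and 23.8, 31.2 and 20.7 CPM at P60. Its larger step was the embryonic one (log2 2.94 ± 0.26, adjusted p = 2.6e-06). Its adult step (0.66 ± 0.23, adjusted p = 0.022) was not called without the first E14.5 library (adjusted p = 0.06) or without the second P60 library (0.092). Esrra, a nuclear receptor that acts with it, had 17.3, 18.6 and 16.2 CPM at E9.5, 31.1, 29.1 and 27.7 CPM at E14.5 and 114, 89.2 and 108 CPM at P60 (1.83 ± 0.14 for P60 against E14.5, adjusted p = 7.2e-07).

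Nrf1, Gabpa and Yy1, the genes for the factors whose motifs were searched, were each called lower at each later stage. Nrf1 had 102, 102 and 96.1 CPM at E9.5, 65.1, 59.3 and 60.3 CPM at E14.5 and 17.8, 18.3 and 16.9 CPM at P60, with no overlap between stages (-1.801 ± 0.12 for P60 against E14.5, adjusted p = 2.6e-07). Gabpa had 92.9, 107 and 104 CPM at E9.5, 41.9, 57.05 and 59.6 CPM at E14.5 and 17.1, 18.5 and 15.7 CPM at P60 (-1.63 ± 0.16, adjusted p = 4.9e-06), also without overlap. Yy1 had 91.6, 91.1 and 93.1 CPM at E9.5, 58.2, 64.3 and 66.1 CPM at E14.5 and 28.1, 30.6 and 32.4 CPM at P60. Gabpa overlaps the member Atp5j and shares 20.2% of that gene's 50-base words, so reads of that stretch are uncertain for both.

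The adult change of members with and without a motif is given as a description with no test. For P60 against E14.5 the median log2 fold change was 1.82 in the 17 members with the NRF1 palindrome and 1.73 in the 51 without. It was 1.87 in the 16 members with GABP letters and 1.72 in the 52 without, and 1.63 in the 7 members with YY1 letters and 1.82 in the 61 without.

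Pprc1, a growth-regulated relative of PGC-1alpha, had 274, 280.4 and 258 CPM at E9.5, 65.6, 60.99 and 62.4 CPM at E14.5 and 13.7, 18.1 and 10.6 CPM at P60. Among the regulators at 20 CPM or more in the higher stage, it had the largest fall in both steps (log2 -2.105 ± 0.18, adjusted p = 2.4e-06, and -2.15 ± 0.18, adjusted p = 1.7e-06). Of 12 genes that maintain and express mitochondrial DNA, 10 were called lower at E14.5 than at E9.5, beside 30.7% of all genes. At P60 against E14.5, 3 were called lower and 2 higher, beside 39.4% and 36.7% of all genes. Tfam, which packages and transcribes mitochondrial DNA, had 127, 122 and 116 CPM at E9.5, 71.4, 52.4 and 52.95 CPM at E14.5 and 63.3, 51.7 and 63.4 CPM at P60, with no call for P60 against E14.5 (0.01 ± 0.16, adjusted p = 0.94). Twnk, the replicative helicase, averaged 92.8 ± 4.84, 41.7 ± 4.12 and 15.6 ± 1.13 CPM over the stages (SD, n = 3 each) and was called lower in each step.

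**Figure D4:**
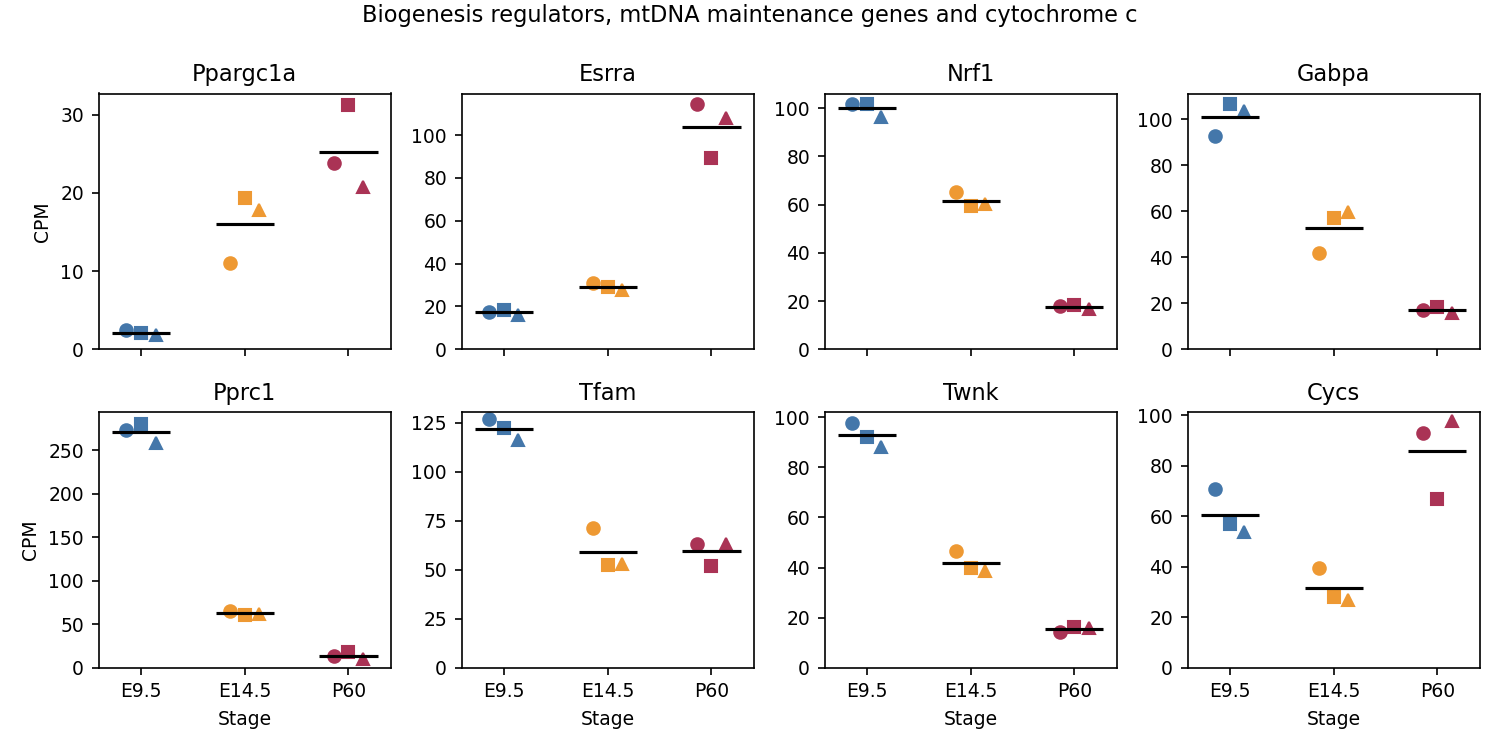
CPM (y axis, from 0) at each stage (x axis) for 5 biogenesis regulators (Ppargc1a, Esrra, Nrf1, Gabpa and Pprc1), 2 genes of mitochondrial DNA (Tfam and Twnk) and Cycs; circles, squares and triangles are libraries 1, 2 and 3 and lines are means. Ppargc1a and Esrra are highest at P60, Nrf1, Gabpa, Pprc1 and Twnk are lowest there, Tfam overlaps between E14.5 and P60, and Cycs is lowest at E14.5.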

How the data were processed

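RNA of 9 mouse central nervous system libraries was measured. The deposited table holds raw counts per Ensembl gene; per the submitters' processing notes the authors trimmed reads with Trimmomatic 0.36 and aligned them with STAR 2.5.2b to mm10. The counting program, its annotation and its strand setting are not given in the sources used here. Symbols came from GENCODE M21 (45143 of 45706 identifiers matched). Genes were filtered by filterByExpr, scaled by TMM and fitted with stage as the only term in edgeR 4.0.16 (R 4.3.3; DESeq2 1.42.0 as an alternative). The fit had a biological coefficient of variation of 19.85% and was tested on simulated data. Totals of 30481975 to 35619093 counts per library leave little counting error except for rare genes.

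Same-numbered libraries correlated in their deviations from the stage mean at 0.549, 0.328 and 0.393 for E14.5 and E9.5. By the rule used (each above 0.1) this pairs them. For P60 and E14.5 the values were 0.328, 0.498 and -0.348, which by that rule does not. Between E14.5 and E9.5, library 2 of one stage and library 3 of the other also correlated, at 0.3945 and 0.363. The rule therefore does not separate numbers 2 and 3. Genes named were all mitochondrial members, all genes of the isoform ratios, the 2 called genes with the largest rise and fall per complex or list and contrast with 20 CPM or more in the higher stage, and the highest and lowest per kilobase in each complex. Sdha, Ndufs3, Uqcrfs1, Atp5a1, Yy1, Tfam, Atp5j and the marker genes were named after their values were seen. Members and lists were chosen with earlier results of these data known. Alternatives were other scalings, no filter, DESeq2, only the libraries compared, a replicate block and leaving out libraries; leaving out both first embryonic libraries and the block in the 6 embryonic libraries were chosen after seeing the data.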

Additional observations from a re-analysis of the deposited data

How the results depend on the processing

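Counts of members called higher for P60 ran from 82 to 88 against E14.5 and from 85 to 88 against E9.5 under every alternative run, with 0 lower. The counts for the lists stayed within 1.5 times of the reported value, and no gene or ratio past its threshold in the reported fit changed sign. The embryonic medians, which were not tested, did: the nuclear one, reported as 0.01, ran from -0.28 to 0.22, and the mitochondrial one, reported as 0.18, was below 0 without the first E9.5 or the third E14.5 library. The embryonic counts did move. Members called lower for E14.5 against E9.5, reported as 5, were 10 with median-of-ratios or upper quartile scaling and with DESeq2, 3 with library totals only, with scaling without mitochondrial genes or at 1.5-fold or more, 2 without a low-count filter, and 8 in a fit of the 6 libraries or without both first embryonic libraries. Members called higher, reported as 1, were 4 with library totals only or without a low-count filter, 3 with scaling without mitochondrial genes, and 2 in a fit of the 6 libraries or without both first embryonic libraries. The replicate block gave 6 higher in the fit of 9 libraries, and 18 higher and 20 lower in the 6 embryonic libraries. Leaving out single libraries gave 1 to 4 higher and 2 to 14 lower. The cause of these shifts was not tested. For P60, whose numbers pair with neither embryonic stage, the block gave 88 members higher in both comparisons. Cox8b, Cox7b2, Atp5l and the embryonic values of Cox6a2 rest on few counts. The cause of the few Atp5l counts was not tested.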

Other observations

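Of 10 genes of the hypoxia response tested, 5 were called higher and 3 lower for P60 against E14.5, where 36.7% of all genes were called higher and 39.4% lower. For E14.5 against E9.5, 2 were called higher and 6 lower, where 34% and 30.7% of all genes were. Bnip3, a mitophagy receptor, averaged 37.9 ± 0.351, 19.2 ± 2.72 and 199 ± 43.7 CPM at E9.5, E14.5 and P60 (SD, n = 3 each). Epas1, which encodes HIF-2alpha, averaged 10.8 ± 1.29, 36.4 ± 5.98 and 84.8 ± 15.9 CPM, and Hif1a 164 ± 8.23, 132 ± 20.8 and 58.4 ± 8.92 CPM. Pdk1, a kinase that restrains pyruvate dehydrogenase, averaged 124 ± 4.31, 33.6 ± 2.05 and 62.98 ± 6.73 CPM, lowest at E14.5.

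Among uncoupling proteins, Slc25a14 averaged 10.3 ± 0.122, 25.5 ± 6.97 and 131 ± 30.6 CPM and was called higher in each step. Slc25a27 averaged 16.2 ± 2.01, 57.2 ± 6.01 and 42.03 ± 3.03 CPM, highest at E14.5. The mitochondrial ribosomal RNAs, which are not members and were picked after their values were seen, took more counts at each later stage. mt-Rnr1 had 2577, 3261 and 3047 counts in the E9.5 libraries, 6026, 7219 and 5914 in the E14.5 libraries, and 184312, 176098 and 212799 in the P60 libraries. mt-Rnr2 had 2229, 2994 and 2988 counts in the E9.5 libraries, 9305, 9872 and 8448 in the E14.5 libraries, and 393527, 297095 and 491436 in the P60 libraries. No stages overlapped for either RNA.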
